A study of Mus musculus with 8 samples.

Results

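The clustered protocadherin genes encode cell surface adhesion proteins that stand in 3 neighbouring clusters, alpha, beta and gamma. Members were the protein-coding genes of the RefSeq annotation of GRCm38 on chromosome 18 whose symbol starts with Pcdha, Pcdhb or Pcdhg and ends in a number. This rule found 57 of 21900 protein-coding genes, 14 in the alpha, 22 in the beta and 21 in the gamma cluster. Distinct peaks were taken from a window that ran from 200 kb below Pcdha1 to 200 kb above the last gamma gene (36730285 to 38041873, 1312 kb). The window held 94 of the 100464 distinct peaks of the study, which merged into 55 of 62023 regions.

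Each neuron switches on a few alternate promoters of each cluster, largely at random. In the alpha and gamma clusters the chosen first exon is spliced to constant exons that all genes of the cluster share, whereas beta genes lack constant exons. The C-type genes at the end of the alpha and gamma rows are in general not subject to this random choice. CTCF and cohesin fold chosen promoters towards distant enhancers, and the proteins on the surface let a neurite recognise and avoid its sister branches. By name, the members comprised 30 alternate genes (12 alpha, 18 gamma), 22 beta genes and 5 C-type genes (Pcdhac1, Pcdhac2, Pcdhgc3, Pcdhgc4 and Pcdhgc5).

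ATAC-seq, which marks accessible DNA with adapters inserted by the Tn5 transposase, was run on primary cortical neurons cultured from E16.5 embryos. Brg1 (Smarca4), an ATPase of the BAF chromatin remodelling complex, was deleted in cKO neurons, which carried BAF53bCre and Brg1F/F, whereas WT neurons were Brg1 WT. BAF53b (Actl6b) is expressed in neurons once they leave the cell cycle, so this Cre acts in neurons and limits the model to deletion after neurons have formed. The 4 conditions were cKO with KCl, cKO basal (no KCl), WT with KCl and WT basal, with 2 libraries of 50000 cells each. KCl, which depolarises neurons, was given at 50 mM for 1 h on day 6 in vitro, after 1 µM TTX and 100 µM APV on day 5. The labels do not say whether basal cultures also received TTX and APV, nor whether the 2 libraries of a condition came from separate cultures or animals.

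The authors deposited 1 peak list per condition, so every count below stands for 1 list and has no replicate error, and no test compares conditions. The lists held 25690 peaks in cKO KCl, 20484 in cKO basal, 20229 in WT KCl and 34061 in WT basal. The background floor recovered from the peak values, a measure of relative depth, was 8.36, 9.47, 8.23 and 9.3 fragments in the same order. With each list cut to its top 20229 peaks, the window held 24 peaks in cKO KCl, 17 in cKO basal, 17 in WT KCl and 23 in WT basal, against 29, 17, 17 and 31 in the full lists. The part of depth in the counts was not tested. Among 12 cortical neuron markers, 5, 5, 4 and 5 had a peak at the start, with Map2, Tubb3 and Syt1 in all 4 lists and none at Rbfox3, Slc17a7, Slc17a6, Neurod2 or Neurod6. These counts are near the shares of all other genes with a start peak (44.1%, 37.9%, 38.9% and 44.7%). Of 5 markers each, the inhibitory neuron list had 2, 1, 0 and 1, astrocytes 1, 0, 0 and 3, the oligodendrocyte lineage 2, 3, 2 and 3, vascular cells 2, 1, 1 and 1, and microglia 0 in every list. For markers whose strand was not known, a peak at either gene end was counted. The part of other cell types in the protocadherin counts was not tested.

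Peaks at the annotated starts of clustered protocadherins were few and were confined to 3 C-type genes in these 4 lists. A peak lay within 1 kb of the start of 2 of 57 members in cKO KCl, 1 in cKO basal, 2 in WT KCl and 3 in WT basal. These are 3.51%, 1.75%, 3.51% and 5.26% of the members. Among 17492 protein-coding genes of other chromosomes with known strand, the shares were 44.1% in cKO KCl, 37.9% in cKO basal, 38.9% in WT KCl and 44.7% in WT basal. Over all 4 lists, 3 of 57 members had a start peak (5.26%, exact 95% interval 1.1 to 14.6%, counting error only), against 54.2% of the other genes. Within 1 kb, the share of members thus lay far below the background in every list.

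None of the 30 alternate genes had a start peak in any list (0%, interval up to 11.6%), and none of the 22 beta genes did (0%, interval up to 15.4%). Of the 5 C-type genes, 2 had one in cKO KCl, 1 in cKO basal, 2 in WT KCl and 3 in WT basal. In these bulk samples, fewer cells with an open site cannot be told apart from less opening per cell. The alpha and gamma genes share their upper ends (37187657 to 37188897 and 37841863 to 37841873), so the lower end was taken as the start of every member.

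Pcdhgc3 was the single member with a start peak in all 4 lists. Its region (37806100 to 37806558, chromosome 18, GRCm38) had a fold over local background of 4.89 in cKO KCl, 4.52 in cKO basal, 4.1 in WT KCl and 4.44 in WT basal. The summit pileups were 51, 52, 45 and 52 fragments in the same order. Each peak stood between the 88.0th and the 93.5th percentile of its own list. Values of different lists are set side by side here as the authors' own peak values, and a fold ranks a peak within its list only.

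Pcdhac2, the last alpha gene, had start peaks in 3 lists and none in cKO basal. Of the regions at this start, the nearer (37143714 to 37144265) had a fold of 2.55 in cKO KCl, 2.82 in WT KCl and 3.27 in WT basal. The farther one (37144428 to 37144780) had 2.82 in cKO KCl and 2.29 in WT basal. The nearer region stood at the 11.9th percentile of cKO KCl, the 33.2nd of WT KCl and the 74.1st of WT basal. With only peaks of −log10 q of 3 or more, or with lists of equal length, the nearer region had no peak in cKO KCl either. Pcdhac2 kept a start peak in cKO KCl under both settings, in the farther region (−log10 q of 3.8). Pcdhac1 had start peaks in WT basal alone, with folds of 2.62 (37089819 to 37090075) and 3.4 (37090573 to 37090868). Pcdhgc4 and Pcdhgc5 had none in any list.

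**Figure D1:**
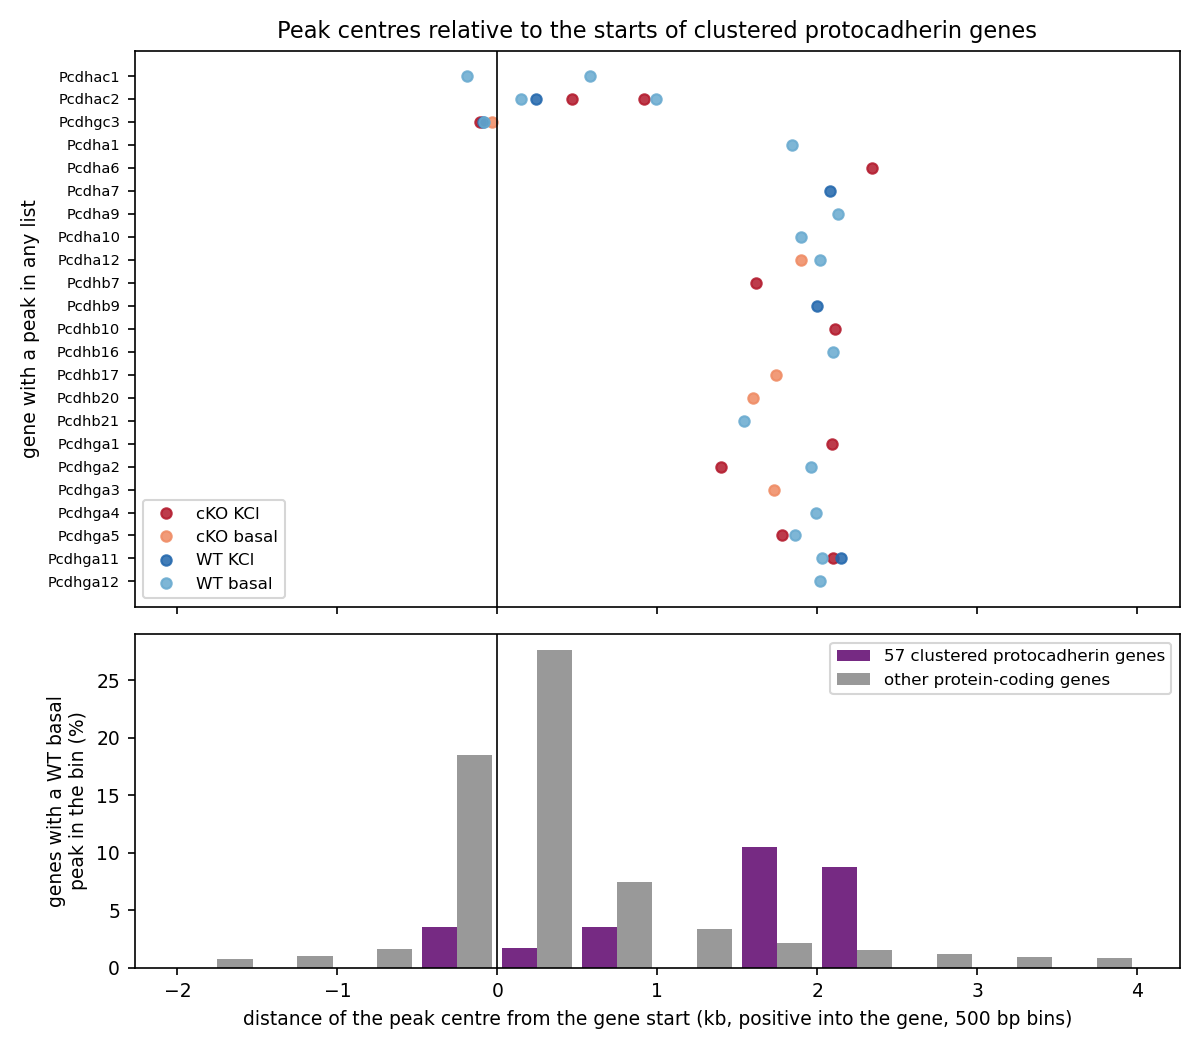
The upper panel plots, for each gene with a peak in this interval, the distance of the peak centre from the annotated gene start (kb, positive into the gene), coloured by list, and the lower panel gives the share of genes with a WT basal peak centre in each 500 bp bin for the 57 members and 15105 other genes. Pcdhac1, Pcdhac2 and Pcdhgc3 have peaks within 1 kb of the start, and the peaks of the 20 alternate and beta genes lie 1.4 to 2.34 kb inside the gene.

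The alternate and beta genes had peaks inside the gene instead. From 2 kb below to 4 kb above the 52 alternate and beta starts, the 4 lists held 25 peaks, and all 25 were centred 1.4 to 2.34 kb into the gene. The median distance was 1.99 kb with an SD of 0.221 kb. The distance to the next member start above varied from 2.63 to 68.0 kb. The search interval bounds the first distance but sets no upper bound on the second, so their spreads cannot be compared. Peaks outside the interval included one 15.5 kb above the Pcdha7 start, with folds of 3.21 in cKO KCl and 2.91 in WT basal. Another, in cKO basal, lay 5.87 kb above the Pcdhb20 start. The 25 peaks fell in 20 genes, 6 alpha, 7 beta and 7 gamma, and the other 32 genes had none. In the plot of peak centres by distance from the start, these peaks form a narrow column across the 3 clusters. Exon positions were not analysed here.

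To set this beside other genes, a band from 1 to 2.5 kb inside the gene was used. It was chosen after the positions of these peaks had been seen, so its counts are descriptions. A peak was centred in the band in 7 of 57 members in cKO KCl, 4 in cKO basal, 3 in WT KCl and 11 in WT basal. These are 12.3%, 7.02%, 5.26% and 19.3% of the members. Among 15105 genes at least as long as the shortest member, the shares were 5.75% in cKO KCl, 4.97% in cKO basal, 4.54% in WT KCl and 6.69% in WT basal. In cKO basal and WT KCl the members' share was near the background, and in cKO KCl its interval (5.08 to 23.7%) reached the background too. In WT basal the interval was 10.0 to 31.9%. In any list, 20 members had such a peak (35.1%, interval 22.9 to 48.9%), against 11.1% of the other genes. Since the band was placed around these same peaks, a higher share of members in it is no test against the background.

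In the alpha cluster the genes with an inside peak were Pcdha1, Pcdha6, Pcdha7, Pcdha9, Pcdha10 and Pcdha12. Pcdha6 had a fold of 3.74 in cKO KCl and Pcdha7 had 3.25 in WT KCl. Pcdha1, Pcdha9 and Pcdha10 had folds of 2.91, 2.72 and 2.62 in WT basal. Each of these 5 genes thus had its peak in a single list. Pcdha12 had 3.25 in cKO basal and 3.01 in WT basal, in a region (37021963 to 37022531) that was the sole alpha peak of the cKO basal list. The C-type genes Pcdhac1 and Pcdhac2 had no peak in the band.

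In the beta cluster each of the 7 genes with an inside peak had it in 1 list. Pcdhb7 (37343209 to 37343430) and Pcdhb10 (37413673 to 37413891) both had a fold of 3.31 in cKO KCl. Pcdhb17 (37486663 to 37486862) and Pcdhb20 had 2.67 and 2.58 in cKO basal. Pcdhb9 (37402657 to 37403047) had 3.03 in WT KCl. Pcdhb16 (37479773 to 37479972) and Pcdhb21 (37515074 to 37515319) had 3.3 and 3.21 in WT basal. No beta region had a peak in more than 1 list.

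In the gamma cluster 7 genes had an inside peak, and Pcdhga5 and Pcdhga11 had it at one site in several lists. Pcdhga11 (37757659 to 37758063) had folds of 2.89 in cKO KCl, 2.92 in WT KCl and 2.62 in WT basal, and no peak in cKO basal. Pcdhga5 had 2.89 in cKO KCl and 2.91 in WT basal. Pcdhga2 had 2.46 in cKO KCl and 2.82 in WT basal at sites that did not overlap. The remaining gamma genes had 1 peak each, with folds of 3.21 at Pcdhga1 in cKO KCl (37663668 to 37664063), 2.77 at Pcdhga3 in cKO basal (37675963 to 37676162), 2.53 at Pcdhga4 in WT basal and 3.11 at Pcdhga12 in WT basal (37767495 to 37767704). No Pcdhgb gene had a peak in the band.

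Over the 3 clusters, 16 of the 20 genes had an inside peak in 1 list, 3 in 2 lists, 1 in 3 lists and 0 in all 4. These are counts of genes, and Pcdhga2 is among the 3 although its peaks in the 2 lists did not overlap. Most merged regions of the genome, a different unit, were likewise in 1 list (71.4%). The folds ran from 2.46 to 3.74 with a median of 2.91, on summit pileups of 22 to 34 fragments. Within their own lists the folds ranked from percentile 7.3 to percentile 76.3 (median 50.7), and 22 of the 25 peaks had a −log10 q of 3 or more. The clustered genes are alike in sequence, and how the authors treated reads that match several places is not given in the sources used here, so a peak inside one of these genes may hold reads of another.

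The strongest sites within and between the clusters lay away from the member starts, with the exception of Pcdhgc3. A site in the part of the alpha cluster that all 14 alpha genes span (37178288 to 37178807, 520 bp) lay 34.9 kb above the start of Pcdhac2 and 9.37 kb below the common alpha end. It had a fold of 4.76 in cKO KCl, no peak in cKO basal, 3.9 in WT KCl and 4.76 in WT basal. Its summit pileups were 44, 35 and 48 fragments in cKO KCl, WT KCl and WT basal. It was the strongest peak of the alpha cluster in each list that held it, at the 90.6th, 85.0th and 93.7th percentile of those lists. The window from the alpha constant exons to the start of the beta cluster is known to hold enhancers of the alpha genes. The files carry no enhancer annotation, so no peak was matched to a known one.

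Another site lay in the alpha-beta gap (37218156 to 37218462, 307 bp), 30.5 kb above the common alpha end and 46.5 kb below the first beta gene, and it is described here because of its values. It had a fold of 5.02 in cKO KCl, no peak in cKO basal, 4.01 in WT KCl and 4.47 in WT basal. The pileups were 46, 36 and 45 fragments in the lists that held it, at the 92.7th, 86.7th and 91.9th percentile. The fold in cKO KCl was the highest of that list in the window. No value exists for cKO basal at either site, since the files list called peaks only.

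**Figure D2:**
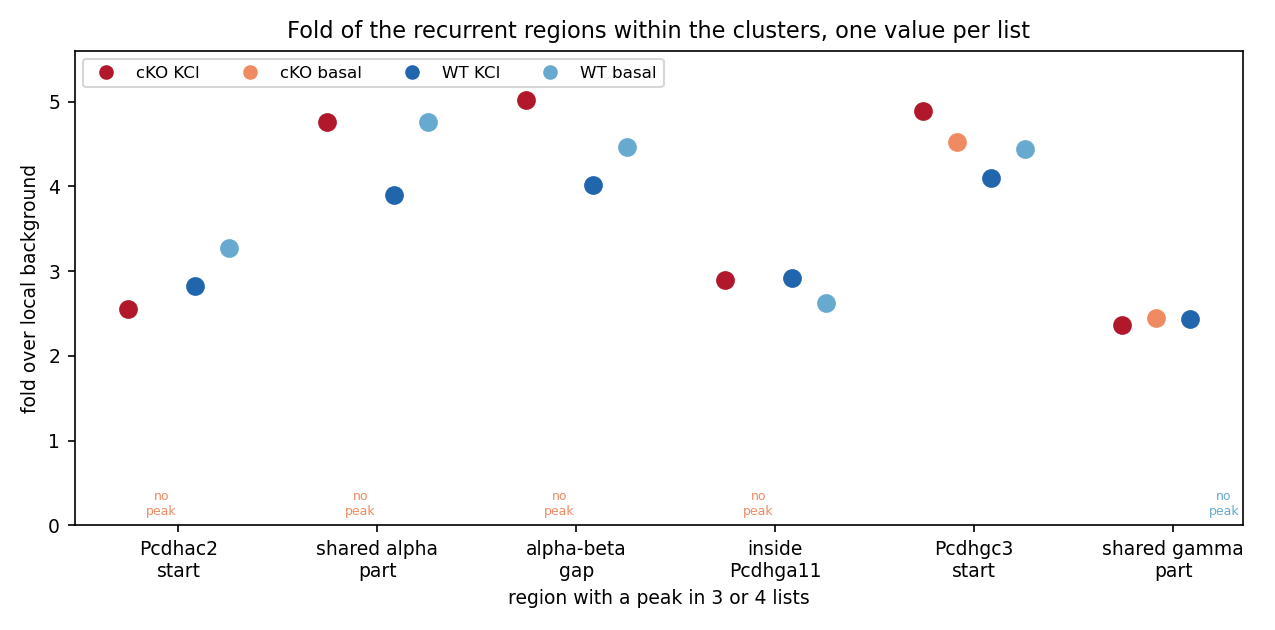
Fold over local background (y axis) of the 6 regions of the clusters and the alpha-beta gap with a peak in 3 or 4 lists, 1 point per list, with "no peak" where a list has none. The first 4 regions lack a peak in cKO basal, Pcdhgc3 has one in all 4 lists, and the site shared by the gamma genes lacks one in WT basal.

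Both sites were absent from cKO basal alone, as were the nearer Pcdhac2 start region and the Pcdhga11 region. The window thus held 4 regions missing from cKO basal alone, 7.27% of its 55 regions, against 2.24% of all regions of the genome. It also held 4 missing from WT KCl alone (7.27%, against 2.4% of all regions), 1 missing from WT basal alone and 0 missing from cKO KCl alone. The window had a larger share of regions in 3 lists to begin with, 16.4% against 6.0% over the genome. Of regions in 3 lists, cKO basal was the missing list in 4 of 9 in the window and 1388 of 3722 over the genome. For WT KCl these were 4 of 9 and 1488 of 3722. The window shares rest on few regions and were not tested. The count for cKO basal was 3 at the stricter threshold, without the Pcdhac2 region, and 2 with lists of equal length, without Pcdhac2 and Pcdhga11, whereas the count for WT KCl was 4 under both. The 4 regions missing from WT KCl lay at the ends of Tmco6, of Hars and Hars2 and of Taf7, and inside Diaph1, so none was in a protocadherin gene. All 4 regions missing from cKO basal lay inside members or in the alpha-beta gap. In the plot of recurrent regions, the empty place at the first 4 regions belongs to cKO basal.

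How often peaks of such strength go missing was read from the rest of the genome. Among WT basal peaks away from gene ends and within 0.25 of the fold of the shared alpha site, 32 of 245 had no cKO basal peak (13.1%, exact interval 9.11 to 17.9%). For the site in the alpha-beta gap the count was 54 of 311 (17.4%, interval 13.3 to 22.0%). Matched on the WT KCl fold, the shares were 39.9% for the shared alpha site and 30.4% for the gap site. Matched on the cKO KCl fold, they were 19.9% and 12.7%. The 1388 regions of the genome missing from cKO basal alone were ranked by the lowest of their folds in the other 3 lists. This lowest fold was 3.9 at the shared alpha site and 4.01 at the gap site. It was at least 3.9 in 28 regions and at least 4.01 in 21, these sites included. The folds were not compared list by list. A peak of this strength was thus usually but not always kept in cKO basal. Whether the difference exceeds that between libraries of 1 condition cannot be read from 1 list each.

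In the gamma cluster, a site that all 21 gamma genes span (37824234 to 37824617), 4.88 kb above the start of Pcdhgc5, had folds of 2.36 in cKO KCl, 2.45 in cKO basal, 2.43 in WT KCl and no peak in WT basal. Its folds were low, at the 3.6th, 11.8th and 5.33rd percentile, with pileups of 34, 36 and 33 fragments over a raised local background. Farther along the shared gamma part, cKO KCl had a peak of fold 2.58 (37826318 to 37826592) and WT basal one of 2.96 (37835571 to 37835894). Beyond the gamma cluster lies Diaph1, a formin that assembles actin, and regulatory sites above the gamma cluster are known to act on beta genes. Inside Diaph1, a site at 37877207 to 37877501 had folds of 4.04 in cKO KCl, 3.63 in cKO basal and 3.5 in WT basal, while the WT KCl list had no peak there. A site nearer to the gamma genes (37852073 to 37852427) had 3.76 in cKO KCl and 3.31 in WT basal.

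**Figure D3:**
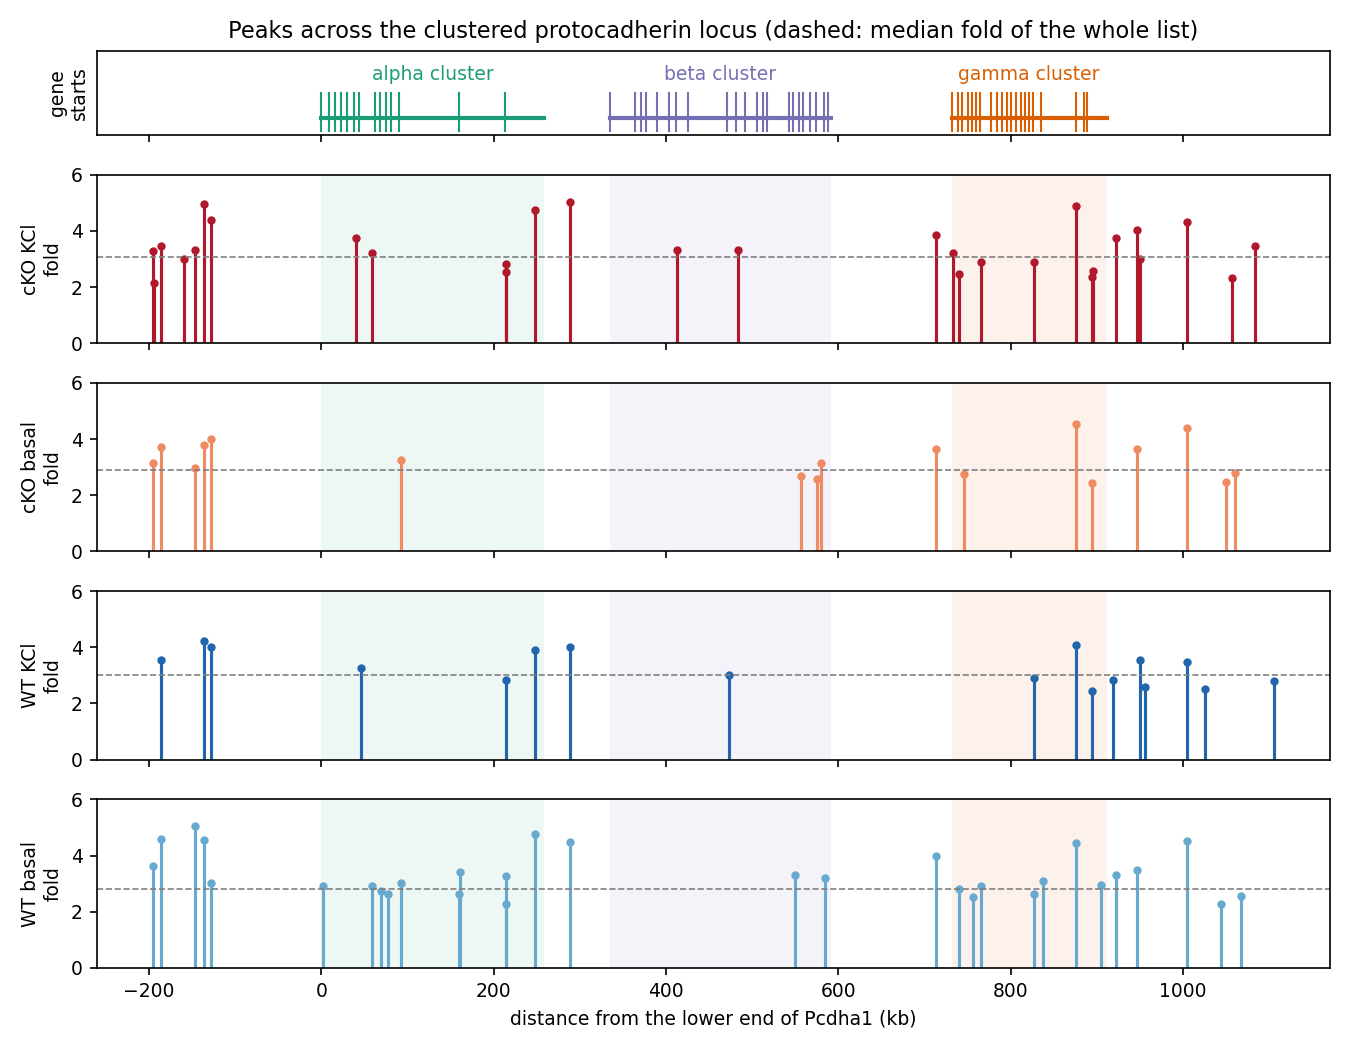
Fold over local background (y axis) of every peak by its distance from the lower end of Pcdha1 (x axis, kb), 1 panel per list, with the member starts and cluster spans on top and the median fold of the whole list as a dashed line. Peaks of fold above 4 stand at the flanks, at the end of the alpha cluster and beyond it, and at Pcdhgc3, while the beta cluster holds 2, 3, 1 and 2 peaks, of fold 2.58 to 3.31, in cKO KCl, cKO basal, WT KCl and WT basal.

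By cluster, the alpha genes held 5 peaks in cKO KCl, 1 in cKO basal, 3 in WT KCl and 10 in WT basal. The beta genes held 2, 3, 1 and 2, and the gamma genes 7, 3, 3 and 7, in the same order. Per 100 kb, the gamma cluster had 3.89 peaks in cKO KCl, 1.67 in cKO basal, 1.67 in WT KCl and 3.89 in WT basal, against 0.944, 0.753, 0.743 and 1.25 over the genome. The beta cluster had 0.78, 1.17, 0.39 and 0.78, and so lay below the genome in cKO KCl, WT KCl and WT basal and above it in cKO basal. The alpha cluster varied most, with 1.93, 0.387, 1.16 and 3.87. In the same order, the lower flank had 3.5, 2.5, 1.5 and 2.5 and the upper flank 3.0, 2.0, 3.0 and 2.5. The gamma cluster thus lay above both flanks in cKO KCl and WT basal, below both in cKO basal and between them in WT KCl. The map of peaks along the locus shows the 10 alpha peaks of WT basal spread from Pcdha1 to the shared part.

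**Figure D4:**
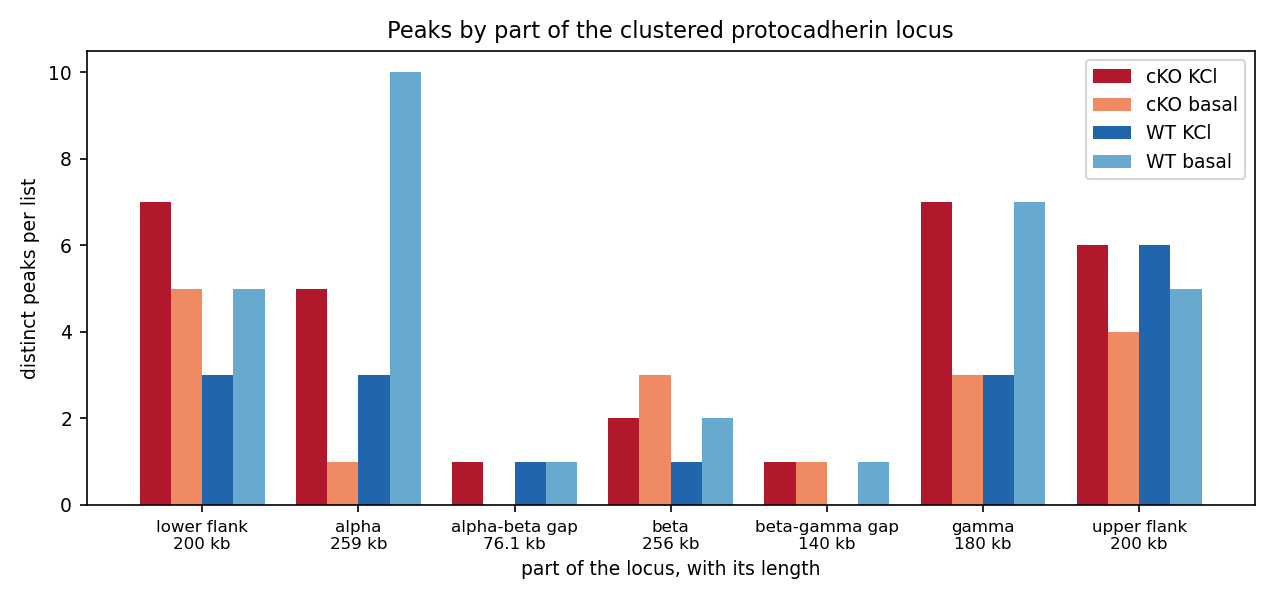
Number of distinct peaks (y axis) in each stretch of the window (x axis, with its length), 1 bar per list. The alpha bars read 5, 1, 3 and 10 in cKO KCl, cKO basal, WT KCl and WT basal, and the gamma bars 7, 3, 3 and 7.

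Of the 32 regions in the 3 cluster spans, 23 were in 1 list (71.9%), 4 in 2 (12.5%), 4 in 3 (12.5%) and 1 in all 4 (3.12%). Over the genome the shares were 71.4%, 11.0%, 6.0% and 11.6%, so the share in 1 list was that of the background. All 8 beta regions were in 1 list, including one between beta genes with a fold of 3.15 in cKO basal (37509982 to 37510291). Over the whole window 5 of 55 regions were in all 4 lists (9.09%), a share near the 11.6% of all regions. Besides Pcdhgc3, these were at the ends of Ndufa2 and Ik (36744164 to 36744899), at Zmat2 (36793717 to 36794023), between genes at 36801573 to 36802018, and at Diaph1 (37934941 to 37935735).

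Brg1 deletion without KCl was set against WT without KCl. Of the 38 regions of the window with a peak in cKO basal or WT basal, 7 were in cKO basal alone (18.4%), 21 in WT basal alone (55.3%) and 10 in both. Over the genome 22.2% were in cKO basal alone and 53.7% in WT basal alone. In the cluster spans the counts were 5, 17 and 2 of 24, so the regions shared were Pcdha12 and Pcdhgc3. The 17 in WT basal alone (70.8%, interval 48.9 to 87.4%) included Pcdhac1, Pcdhac2, the shared alpha site and Pcdhga11. The background share lies within that interval.

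After KCl, the cKO list had more peaks in the window than the WT list, 29 against 17. The cKO KCl list was also longer over the genome, with 25690 peaks against 20229. With lists of equal length the window counts were 24 and 17. Of 35 regions, 18 were in cKO KCl alone (51.4%), 6 in WT KCl alone (17.1%) and 11 in both, beside 43.7% and 28.1% over the genome. In the cluster spans, 9 of 16 were in cKO KCl alone, 2 in WT KCl alone and 5 in both. The 5 were the nearer Pcdhac2 start region, the shared alpha site, Pcdhga11, Pcdhgc3 and the shared gamma site. The 2 in WT KCl alone were the peaks inside Pcdha7 and Pcdhb9.

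KCl was then compared with no KCl within each genotype. In cKO neurons, 19 of 36 regions were in cKO KCl alone (52.8%, against 43.2% over the genome), 7 in cKO basal alone (19.4%, against 28.5%) and 10 in both. In the cluster spans the counts were 12, 5 and 2 of 19. In WT neurons, 8 of 39 regions were in WT KCl alone (20.5%, against 22.1% over the genome), 22 in WT basal alone (56.4%, against 54.1%) and 9 in both. In the cluster spans these were 3, 15 and 4 of 22. In each pair the longer list had the larger share alone, and each genome share lay within the interval of the window share. The comparisons share lists with one another, so they are not independent.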

How the data were processed

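ATAC-seq libraries (8 in all, 2 per condition) had been reduced by the authors to narrowPeak files of nucleosome-free fragments, 1 for each condition. Per the submitters' processing notes, Bowtie2 and MACS2 were used with GRCm38 and mm10, names of the same assembly. Not given in the sources used here were their versions and settings, the handling of duplicate and multi-mapping reads, the Tn5 shift and how libraries were pooled. The labels state 60 M paired 75-bp reads per library after 7 to 9 PCR cycles. Each deposited peak carries a fold over local background (a ratio), a −log10 p-value and a score, the authors' −log10 q-value times 10 cut to a whole number. These values served to rank and filter peaks within a list, and are printed side by side across lists as descriptions. The lowest −log10 q, read from the score, was 1.3 to 1.5.

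Fragment pileup and local background were recovered from fold and p-value, and a whole pileup solved both within 0.001 for 100% of peaks. Peaks sharing at least 1 bp were merged, and 5 mitochondrial peaks per list were left out. The gene table (RefSeq, GRCm38) gives no strand on chromosome 18, so a member's lower-coordinate end was taken as its start. Other genes were used where strand was known. No promoter or protein sequence of the members is shown.

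No test was run, because each condition has 1 list. Shares carry exact Clopper-Pearson 95% intervals, for counting error only. Members, gene lists and comparisons were chosen with earlier results of these data known. Named were members with a start peak, regions in all 4 lists, per cluster the 2 regions of highest fold in each list, and listed genes that differed between lists. Other members and regions were named after their values were seen. Alternatives were a −log10 q of at least 3, lists cut to their top 20229 peaks, other distances and overlaps, assignment by summit, and the cluster spans alone. Counting and pileup recovery were tested on simulated data. Python 3.11.15, pandas 2.3.3, NumPy 2.4.6, SciPy 1.17.1 and matplotlib 3.10.9 were used.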

Additional observations from a re-analysis of the deposited data

Results flagged for a closer look

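KCl minus basal peak counts had opposite signs in the 2 genotypes. In the window of the clustered protocadherins the difference was 12 in cKO neurons (29 peaks in cKO KCl, 17 in cKO basal) and -14 in WT neurons (17 in WT KCl, 31 in WT basal). In the spans of the 3 clusters it was 7 in cKO (14 and 7 peaks) and -12 in WT (7 and 19 peaks). This difference was not tested, since each condition has 1 list. Over the whole genome the lists differed the same way, by 5206 peaks in cKO and -13832 in WT. With each list cut to its top 20229 peaks, the window differences were 7 in cKO and -6 in WT, and the span differences 4 and -5.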

How the results depend on the processing

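Of 99 recomputed counts, 85 stayed within 1.5 times the value reported and 14 moved further. All 29 counts of the stricter threshold (−log10 q of at least 3) stayed, as did those by summit, by overlap of 50% of the shorter peak, within 500 bp of a start and within 1 kb of either gene end. With lists of equal length, alpha peaks in WT basal fell to 6, gamma peaks in WT basal to 4, and regions in WT basal but not cKO basal to 13; fewer peaks were kept there by construction. Within 2 kb of the start, 8 members in cKO KCl, 5 in cKO basal, 4 in WT KCl and 13 in WT basal had a peak. No share of other genes within 2 kb is given here, so the contrast with the background holds for 1 kb only. For a peak centred 1 to 2.5 kb inside the gene, an alternative chosen after seeing the data, the counts were 7 in cKO KCl, 4 in cKO basal and 11 in WT basal. Both of these alternatives reach the peaks inside the alternate and beta genes. In the cluster spans alone the peaks numbered 14 in cKO KCl, 7 in cKO basal, 7 in WT KCl and 19 in WT basal, because flanks and gaps are left out. The shared alpha site and the site in the alpha-beta gap stayed missing from cKO basal alone at the stricter threshold and at equal list length. The nearer Pcdhac2 region had no peak in cKO KCl under either setting, while the farther one kept its peak. At equal list length Pcdhga11 had no peak in WT basal, and the shared gamma site none in cKO KCl. No paired analysis was possible because each deposited list stands for the 2 libraries of its condition, and for the same reason no replicate could be left out. The files give no read totals, and the peaks inside alternate and beta genes rest on summit pileups of 22 to 34 fragments.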

Other observations

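Protocadherin genes outside the clusters also encode adhesion proteins, each from a promoter of its own. Start peaks were sought at 12 non-clustered protocadherin genes, and either end was accepted for Pcdh1, Pcdh11x and Pcdh12, whose strand was not known. Such a peak was found at 9 genes in cKO KCl, 6 in cKO basal, 5 in WT KCl and 8 in WT basal. Among other protein-coding genes, all of known strand and counted at the start only, the shares were 44.1%, 37.9%, 38.9% and 44.7% in that order. The counts in cKO basal and WT KCl lie near these shares. Pcdh7, Pcdh8, Pcdh10 and Pcdh17 had such a peak in all 4 lists, and Pcdh9, Pcdh12 and Pcdh15 had none. Pcdh18 had folds of 4.18 in cKO KCl and 3.63 in cKO basal and no peak in either WT list. Pcdh20 had 4.05 in cKO KCl and 3.21 in WT basal, and Pcdh1 had 2.37 and 2.26 in the same lists. Pcdh19 lacked a peak in cKO basal alone, and Pcdh11x in WT KCl alone.

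CTCF and cohesin form the loops of the clusters. Of 11 genes for CTCF, cohesin and loop factors, 7 in cKO KCl, 6 in cKO basal, 7 in WT KCl and 7 in WT basal had a peak at the start. Ctcf had folds of 4.08, 3.32, 3.53 and 5.21 in that order. Mau2, which helps load cohesin, had 2.63 in cKO KCl, none in cKO basal, 3.62 in WT KCl and 2.91 in WT basal. Of 12 silencing and DNA methylation factors, 9, 8, 9 and 8 had one. Setdb1, a histone H3K9 methyltransferase, had 3.9 in WT KCl and none elsewhere. Wiz had 2.21 in cKO KCl and 2.69 in WT basal, and Ehmt2 had 2.53 in cKO KCl, 2.32 in cKO basal and 2.59 in WT KCl. Of 16 partners and effectors of the clustered proteins, 10, 10, 11 and 10 had one, and Axin1 was the one entry that differed, with 2.48 in WT KCl alone. Either gene end was accepted where the strand was not known.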
